A study of Mus musculus with 16 samples.

Results

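Heat-shock chaperone genes were followed across the 4 groups of a mouse lung experiment on pregnancy and titanium dioxide (TiO2) particles. The set held 10 genes of the 12369 that were tested: Hsph1, Dnaja1, Dnajb1, Hspa8, Hspa1b, Hspa5, Hsp90aa1, Hspb1, Hspe1 and Hspd1. They were picked by name, with earlier comparisons of these same arrays known. Their p-values, counts and medians below are therefore descriptions rather than independent evidence. The groups were pregnant BALB/c mice given TiO2, pregnant mice given phosphate-buffered saline (PBS), non-pregnant mice given TiO2 and non-pregnant mice given PBS, with 4 arrays each. All mice were females of this inbred strain, the pregnant ones were at gestation day 14, and no group carried a genetic change. The single intranasal dose was 50 ug of particles or the vehicle alone, and whole-lung RNA was taken 19 h later and hybridised to 1-colour Affymetrix mouse arrays. The study asked whether pregnancy alters the weak lung response to particles regarded as inert. The labels state neither the age of the mice nor whether each array came from a separate animal, so that the p-values measure the spread between these samples.

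Heat-shock chaperones bind unfolded proteins and help them fold, refold or reach degradation. In the cytosol, HSP70 proteins do this in cycles: J-domain proteins deliver the client and start ATP hydrolysis, HSP110 proteins exchange the nucleotide, and many clients are then passed to HSP90. Heat-shock factor 1 raises transcription of most of these genes when unfolded proteins accumulate, through repeats of the unit nGAAn in their promoters. The endoplasmic reticulum and the mitochondria have chaperones of their own, which also answer to stress inside those compartments.

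Because many heat-shock chaperone genes are regarded as targets of a common factor, the promoters of the members were read first. RefSeq promoter windows on GRCm38.p6, from 250 bases before to 50 bases after the annotated start, were present for 8 of the 10 genes, in 13 windows. Hspa8 and Hsp90aa1 had no entry. Each window was searched on both strands for pairs of inverted heat-shock units, spelled GAANNTTC and TTCNNGAA, for a longer run that holds the second followed without a gap by NNTTC and so contains both, and for the endoplasmic reticulum stress element, which is CCAAT, any 9 bases and CCACG. At least 1 of the 2 pairs was found in 7 of the 13 windows, which belong to 6 of the 8 genes, and in 15.1% of all 32851 windows. The longer run was found in 4 of the 13 windows and in 0.603% of all windows. These were both windows of Hsph1, the window of Hspe1 and 1 of the 2 windows of Hspd1. The windows of Hsph1 overlap and hold the same letters, and the matches of Hspe1 and Hspd1 are a shared stretch. Both counts of windows therefore include some letters more than once. The stress element was found in 1 of the 13 windows, of Hspa5, and in 0.119% of all windows. No letters of these kinds were in the windows of Dnajb1. The stretches from 150 bases before to 30 after the start are printed 5′ to 3′ for 6 genes to show where the matches lie, with the matched letters in capitals.
Hsph1 (chr5:149636286-149636465, minus strand): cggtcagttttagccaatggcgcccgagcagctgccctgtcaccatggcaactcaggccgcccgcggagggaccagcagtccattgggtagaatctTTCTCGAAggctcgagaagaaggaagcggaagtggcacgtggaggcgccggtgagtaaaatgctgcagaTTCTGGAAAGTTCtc
Hspa1b (chr17:34959209-34959388, minus strand): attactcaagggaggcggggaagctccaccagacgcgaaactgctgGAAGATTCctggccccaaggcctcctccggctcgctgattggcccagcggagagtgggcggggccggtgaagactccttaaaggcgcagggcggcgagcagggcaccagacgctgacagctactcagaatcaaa
Dnaja1 (chr4:40722318-40722497, plus strand): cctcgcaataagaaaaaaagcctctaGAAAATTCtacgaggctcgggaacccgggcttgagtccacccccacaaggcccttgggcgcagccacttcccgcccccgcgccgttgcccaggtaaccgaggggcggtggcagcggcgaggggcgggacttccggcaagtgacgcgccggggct
Hspb1 (chr5:135887769-135887948, plus strand): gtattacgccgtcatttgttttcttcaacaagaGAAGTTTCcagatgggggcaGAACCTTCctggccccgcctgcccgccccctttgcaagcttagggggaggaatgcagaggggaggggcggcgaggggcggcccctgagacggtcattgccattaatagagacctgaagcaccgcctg
Hspa5 (chr2:34771940-34772119, plus strand): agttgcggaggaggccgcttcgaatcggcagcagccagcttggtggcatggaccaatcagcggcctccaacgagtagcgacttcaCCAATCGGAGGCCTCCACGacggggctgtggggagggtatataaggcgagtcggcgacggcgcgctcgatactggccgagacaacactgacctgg
Hspe1 (chr1:55087998-55088177, plus strand): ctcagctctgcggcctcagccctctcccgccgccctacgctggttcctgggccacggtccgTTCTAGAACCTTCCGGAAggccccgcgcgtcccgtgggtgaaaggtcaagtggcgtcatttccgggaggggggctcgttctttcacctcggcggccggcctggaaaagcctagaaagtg
In the printed window of Hsph1 the matches began 54 bases before and 16 bases after the start. The match in Hspa1b began 104 bases before its start, and that in Dnaja1 124 bases before the start used here, which is 1 of its 3 annotated windows. In Hspb1 the pairs began 117 and 97 bases before the start. Hspe1 and Hspd1 are neighbours read in opposite directions, and the capitals printed for Hspe1, from 89 bases before its start, are the same stretch that was matched in Hspd1 on the other strand. These matches are letters in a sequence and say nothing about binding in these lungs.

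On every array the lung markers Sftpc and Scgb1a1 were at 13.15 log2 or more and 13.44 log2 or more. Values throughout are log2 of the quantile-normalized signal plus 16. Before normalization the trimmed mean signal of the arrays ranged from 137 to 263. Non-pregnant PBS replicate 2 is called pregnant in 1 label and non-pregnant in another, and was placed in the non-pregnant group, for which the design text and the labels' list of RNA extracts both give 4 samples. Non-pregnant PBS replicates 3 and 4 carried thymus transcripts, with the thymic protease Prss16 at up to 9.72 log2 against at most 6.32 on the other 14 arrays. Pregnant TiO2 replicate 2 lacked squamous epithelium and striated muscle transcripts that all the others held: Krt13 was at 5.21 log2 there and at 10.71 or more elsewhere, and Acta1 at 6.56 against 11.86 or more.

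After TiO2, the brightest probe sets of 3 cytosolic chaperones that work in the HSP70 cycle were lower in pregnant than in non-pregnant lungs. Hsph1, the HSP110 nucleotide exchange factor, was 1.77-fold lower, Dnaja1, a J-domain partner of HSP70, 1.44-fold lower, and Hspa8, the constitutive HSP70, 1.23-fold lower. These 3 passed the limma test (adjusted p under 0.05 over all 12369 genes), and no member was called higher. The probe sets of Hspa8 did not all lie below 0, as given further on, so that its value is uncertain. Of all genes, 1.88% were called in either direction and 0.509% were called lower. The differences of the other 7 members ran from -0.71 for Hspa1b to 0.00 for Hspe1, the mitochondrial cochaperonin. The median over the 10 members was -0.35, beside 0.03 over all genes tested, and 9 of the 10 lay below 0, beside 44.4% of all genes. All 3 calls were lost when non-pregnant TiO2 replicate 1, the array with the highest chaperone levels, was left out, although the differences kept their sign. In whole-lung RNA, fewer cells of a type and less RNA per cell cannot be told apart.

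**Figure D1:**
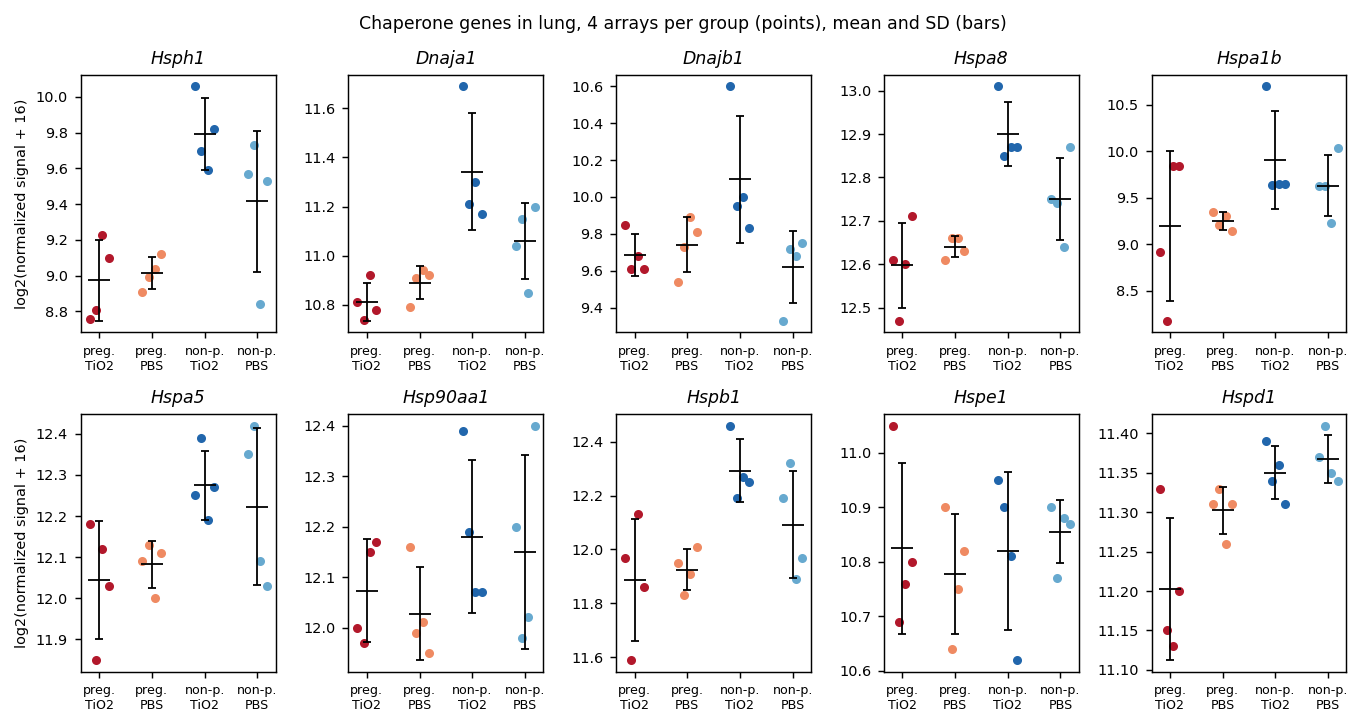
Signals of the 10 chaperone genes by group, as log2(normalized signal + 16) on a separate axis for each gene; points are the 4 arrays of a group and bars are the mean and SD. For Hsph1, Dnaja1 and Hspa8 the pregnant TiO2 arrays all lie below the non-pregnant TiO2 arrays, while for Hspe1 the groups lie over each other.

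Hsph1 had the largest difference of the members. It was at 8.76, 8.81, 9.23 and 9.10 log2 in pregnant TiO2 lungs, against 10.06, 9.70, 9.59 and 9.82 log2 in non-pregnant TiO2 lungs. The groups did not overlap, and the highest pregnant value stayed under the lowest non-pregnant one. The difference was -0.82 ± 0.17 (SE), with a 95% interval from -1.17 to -0.47 and a limma adjusted p of 0.0261. By group, Hsph1 averaged 8.97 ± 0.23 log2 in pregnant TiO2, 9.01 ± 0.09 in pregnant PBS, 9.79 ± 0.20 in non-pregnant TiO2 and 9.42 ± 0.40 in non-pregnant PBS lungs (SD, n = 4 each). The ranges of the pregnant groups overlapped each other, and so did those of the non-pregnant groups.

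Among the HSP70 genes, Hspa8 helps newly made proteins fold and strips clathrin from vesicles in unstressed cells. It was at 12.61, 12.47, 12.60 and 12.71 log2 in pregnant TiO2 lungs, against 13.01, 12.85, 12.87 and 12.87 log2 in non-pregnant TiO2 lungs. The groups did not overlap, although the gap between them was small. The difference was -0.30 ± 0.07 (SE; interval -0.45 to -0.15; limma adjusted p = 0.0466). Hspa1b, the strongly heat-inducible HSP70, was at 8.92, 8.18, 9.84 and 9.84 log2 in pregnant TiO2 lungs, against 10.70, 9.64, 9.65 and 9.65 log2 in non-pregnant TiO2 lungs. A pair of pregnant arrays was low and a pair lay above 3 of the non-pregnant arrays, so the groups overlapped. Its difference of -0.71 ± 0.32 had the widest interval of the members, from -1.40 to -0.03, and an adjusted p of 0.224. Hspa1b and its neighbour Hspa1a are nearly identical in sequence, and probes for one can bind transcripts of the other. Hspa1a had a difference of -0.45 ± 0.34 (adjusted p = 0.477).

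The J-domain proteins of the set differed in how cleanly the groups separated. Dnaja1 was at 10.81, 10.74, 10.92 and 10.78 log2 in pregnant TiO2 lungs, against 11.69, 11.21, 11.30 and 11.17 log2 in non-pregnant TiO2 lungs. The pregnant arrays lay close together and all below the non-pregnant ones, with a difference of -0.53 ± 0.11 (SE; interval -0.76 to -0.30; limma adjusted p = 0.0263). Dnajb1, a heat-inducible J-domain partner of HSP70, was at 9.85, 9.61, 9.68 and 9.61 log2 in pregnant TiO2 lungs, against 10.60, 9.95, 10 and 9.83 log2 in non-pregnant TiO2 lungs. Here the groups overlapped slightly, at 9.85 and 9.83. The difference was -0.41 ± 0.15, with an adjusted p of 0.143.

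Hspb1, a small heat-shock protein that holds unfolded clients and protects actin filaments, was at 11.97, 11.59, 12.13 and 11.86 log2 in pregnant TiO2 lungs, against 12.46, 12.19, 12.27 and 12.25 log2 in non-pregnant TiO2 lungs. The groups did not overlap, but the difference of -0.40 ± 0.12 missed the threshold over all genes (adjusted p = 0.0806). Hsp90aa1, the inducible cytosolic HSP90, ranged from 11.97 to 12.17 log2 in pregnant TiO2 lungs and from 12.07 to 12.39 log2 in non-pregnant TiO2 lungs. Its interval, from -0.32 to 0.11, included 0.

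The remaining members work in organelles. Hspa5, the HSP70 of the endoplasmic reticulum, ranged from 11.85 to 12.18 log2 in pregnant TiO2 lungs and from 12.19 to 12.39 log2 in non-pregnant TiO2 lungs, with no overlap. Its difference was -0.23 ± 0.10 (adjusted p = 0.205). Hspd1, the mitochondrial chaperonin, ranged from 11.13 to 11.33 log2 in pregnant TiO2 lungs and from 11.31 to 11.39 log2 in non-pregnant TiO2 lungs, and its difference was -0.15 ± 0.06 (adjusted p = 0.207). Hspe1, which forms the lid of that chaperonin and which lies beside it, had a difference of 0.00 ± 0.09, with an interval from -0.20 to 0.20. Counted without adjustment, 8 of the 10 members had a p under 0.05 in the lower direction, where 7.62% of all genes did, and 5 of 10 had groups that did not overlap in that direction, where 6.18% of all genes did.

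**Figure D2:**
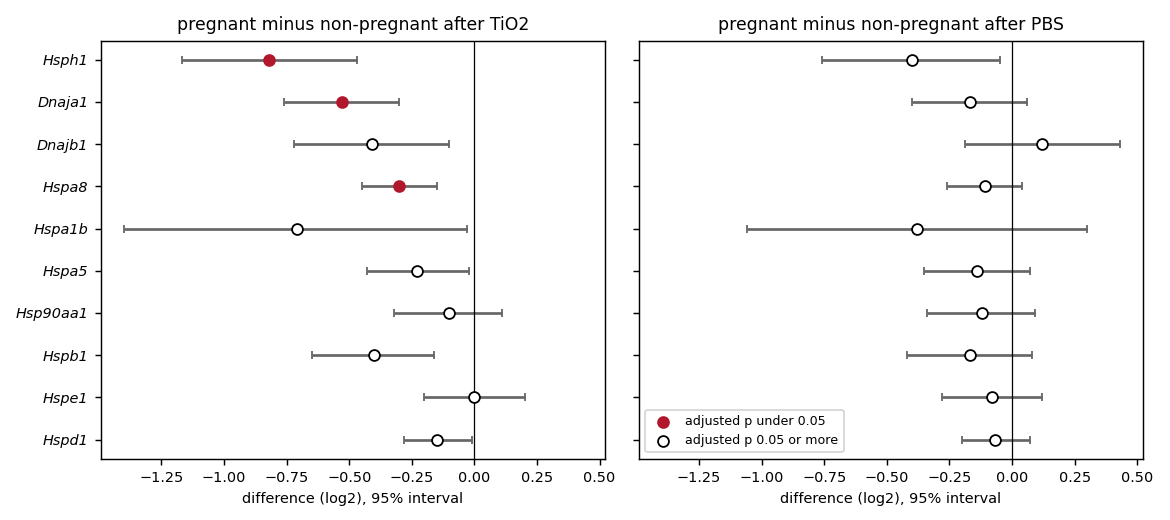
Differences between pregnant and non-pregnant lungs after TiO2 (left) and after PBS (right) in log2 units, with 95% intervals from the limma fit; filled points have an adjusted p under 0.05. Filled points are Hsph1, Dnaja1 and Hspa8 after TiO2, at -0.82, -0.53 and -0.30, and no member is filled after PBS.

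After PBS, no member was called between pregnant and non-pregnant lungs, where 1.04% of all genes were called in either direction and 0.234% were called lower. Hsph1 was at 8.91, 8.99, 9.04 and 9.12 log2 in pregnant PBS lungs, against 9.57, 9.73, 8.84 and 9.53 log2 in non-pregnant PBS lungs. A single non-pregnant array, replicate 3, lay below all the pregnant values, and the other 3 lay above them. The difference was -0.40 ± 0.17 (interval -0.76 to -0.05; limma adjusted p = 0.337). It was the 1 member with an unadjusted p under 0.05 in the lower direction, as 5.28% of all genes had. Without replicate 3, which is 1 of the 2 arrays with thymus transcripts, Hsph1 passed the test at -0.60 (adjusted p = 0.0279), and without both of those arrays at -0.64 (adjusted p = 0.0423). Without non-pregnant PBS replicate 2, the array with conflicting labels, Hsph1 was at -0.30 (adjusted p = 0.497). With that array counted as pregnant PBS it was at -0.16 (adjusted p = 0.816). Dnaja1 differed by -0.17 ± 0.11, Hspa8 by -0.11 ± 0.07 and Dnajb1 by 0.12 ± 0.15. Without non-pregnant PBS replicate 1, Dnajb1 was at 0.02. Hspd1, at 11.26 to 11.33 log2 in pregnant PBS and 11.34 to 11.41 log2 in non-pregnant PBS lungs, did not overlap, where 2.3% of all genes did not in that direction. Its difference was -0.07 ± 0.06. The median over the members was -0.13, and 9 of the 10 lay below 0, beside 48.2% of all genes. The comparisons after TiO2 and after PBS share no arrays.

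TiO2 itself called no gene in either kind of mouse by limma, so that the share called among all genes was 0%. Without adjustment, 388 genes had a p under 0.05 in the lower and 407 in the higher direction in pregnant mice, against 780 and 443 in non-pregnant mice. In non-pregnant mice, Dnajb1 was at 10.60, 9.95, 10 and 9.83 log2 after TiO2, against 9.33, 9.72, 9.68 and 9.75 log2 after PBS. The groups did not overlap, as for 2.09% of all genes in the higher direction. The difference of 0.47 ± 0.15 had an interval from 0.16 to 0.78, and an adjusted p of 0.32. Hsph1 differed by 0.38 ± 0.17 (adjusted p = 0.476) and Dnaja1 by 0.28 ± 0.11 (adjusted p = 0.411). These 3 had an unadjusted p under 0.05 in the higher direction, as 3.58% of all genes did. Without non-pregnant TiO2 replicate 1, Dnajb1 was at 0.30 and Dnaja1 at 0.17, and without non-pregnant PBS replicate 3, Hsph1 was at 0.18. The median over the members was 0.17, beside -0.02 over all genes.

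In pregnant mice the differences between TiO2 and PBS ran from -0.10 for Hspd1 to 0.05 for Hsp90aa1 and Hspe1. None of the members had an unadjusted p under 0.05, where 6.43% of all genes did in either direction, and the median was -0.04. Hsph1 differed by -0.04 ± 0.17 and Dnajb1 by -0.06 ± 0.15, with intervals from -0.39 to 0.31 and from -0.37 to 0.26. Hspa1b, at -0.06, was at 0.28 without pregnant TiO2 replicate 2 and at -0.27 without replicate 3 or 4 of that group. The TiO2 response was then compared between pregnant and non-pregnant mice within the same fit. The response of Dnajb1 in pregnant minus that in non-pregnant mice was -0.53 ± 0.21 (interval -0.97 to -0.09; adjusted p = 0.406), that of Dnaja1 -0.36 ± 0.15 (interval -0.69 to -0.04; adjusted p = 0.419) and that of Hsph1 -0.42 ± 0.24 (interval -0.92 to 0.08; adjusted p = 0.532). No member and no other gene was called for this difference (0% of genes). At an unadjusted p under 0.05, 2 of the 10 members, Dnajb1 and Dnaja1, had a response below that of non-pregnant mice, beside 4.43% of all genes. A difference in the TiO2 response between pregnant and non-pregnant mice was therefore not shown for any member.

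Probe sets of the same gene were set side by side, because each reads another stretch of the transcript. The 10 genes had 27 probe sets, of which 25 passed the filter on dim signals, and the other 2, both of Hsp90aa1, were above the median of no array. Between pregnant and non-pregnant lungs after TiO2, 21 of the 25 lay below 0 and 9 had groups that did not overlap in that direction, where 6.59% of all kept probe sets did. In a fit of all 23995 kept probe sets, with p-values adjusted over them, 2 of the 25 were called, the brightest ones of Hsph1 (adjusted p = 0.0427) and Dnaja1 (adjusted p = 0.0469), beside 0.767% of all kept probe sets called in either direction and 0.238% called lower.

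**Figure D3:**
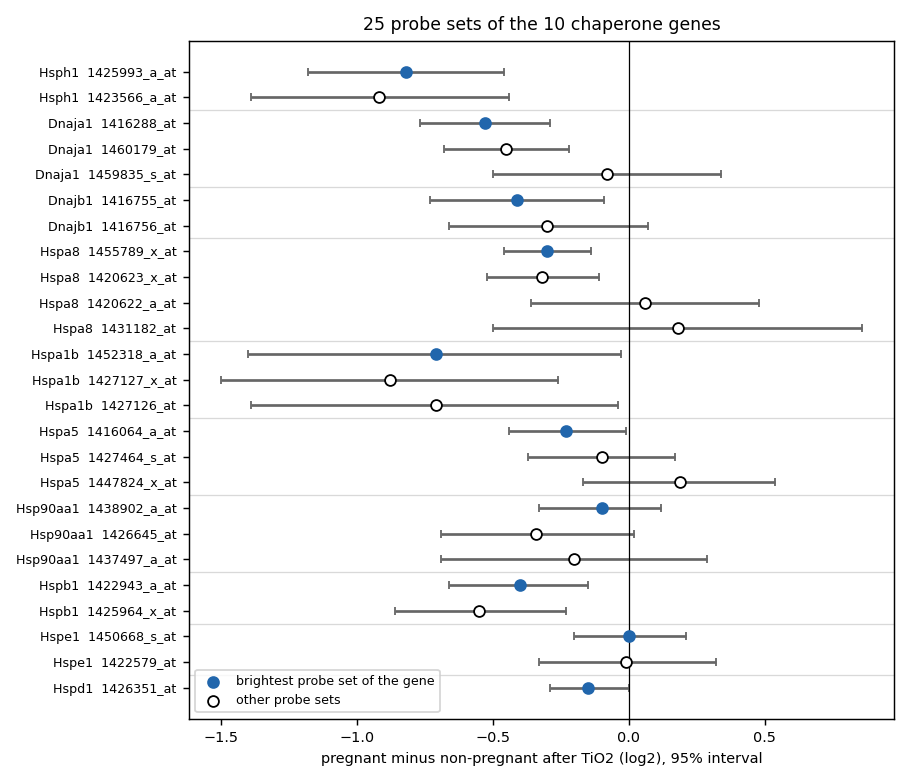
Differences between pregnant and non-pregnant lungs after TiO2 for the 25 probe sets that passed the filter, in log2 units with 95% intervals; filled points are the brightest probe set of each gene. Both probe sets of Hsph1 lie at -0.82 and -0.92, whereas the 4 of Hspa8 run from -0.32 to 0.18, the last for a dim probe set.

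The second probe set of Hsph1, 1423566_a_at, was at 7.64, 7.65, 8.40 and 8.13 log2 in pregnant TiO2 lungs, against 9.24, 8.61, 8.59 and 9.03 log2 in non-pregnant TiO2 lungs. Its groups were also apart, with a difference of -0.92 ± 0.22 and an adjusted p of 0.0703. For Dnaja1, 1460179_at differed by -0.45 ± 0.11 (adjusted p = 0.0656), whereas 1459835_s_at differed by -0.08 ± 0.20. Hspa8 was split: 1455789_x_at and 1420623_x_at differed by -0.30 ± 0.08 and -0.32 ± 0.10, and 1420622_a_at and 1431182_at by 0.06 ± 0.20 and 0.18 ± 0.32. The last of these was dim, at 5.5 to 6.94 log2, and was above the array median on 11 of the 16 arrays. The first pair of Hspa8 carries the suffix for probes that may also bind other transcripts, so that the Hspa8 value is uncertain. That suffix is also on dimmer probe sets of Hspa5, Hspa1b and Hspb1. The related suffix _s_at is on 1459835_s_at of Dnaja1, 1427464_s_at of Hspa5 and 1450668_s_at, the brightest probe set of Hspe1. What such probes added to these values was not tested. The 3 kept probe sets of Hsp90aa1 all lay below 0, at -0.10, -0.34 and -0.20, and the brightest of them, used above, was the nearest to 0. The 3 probe sets of Hspa1b differed by -0.71, -0.88 and -0.71, and the 2 of Hspb1 by -0.40 and -0.55. For Hspa5 the 3 values were -0.23, -0.10 and 0.19, and both probe sets of Hspe1 were within 0.01 of 0.

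The members varied together across the 16 arrays, although not all of them. Over 45 pairs of members, Pearson's r ran from 0.01 for Hsph1 with Hspe1 to 0.92 for Dnaja1 with Hspa8, with a median of 0.55. After the group means were taken off, r ran from -0.17 to 0.85 and its median was 0.36. These values are descriptions: the pairs share the 16 arrays, their brightness and their RNA. Before group means were taken off, Hsph1, Dnaja1, Hspa8, Hspa1b and Hspb1, grouped after the values were seen, had r of 0.75 or more in each pair. Hspe1 then had r of at most 0.40 with any member. With group means taken off, the lowest r among the grouped genes was 0.40, for Hspa8 with Hspb1. Hspe1 then reached 0.59 with Hspd1, so that the contrast was weaker by that measure.

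A pair of arrays stood at the ends of this common variation. Non-pregnant TiO2 replicate 1 was the highest of all 16 arrays for 6 of the 10 members and among the highest 4 for 9 of them. Pregnant TiO2 replicate 2, the array without squamous and muscle transcripts, was the lowest for 5 members and among the lowest 4 for all 10. The mean of the members, each centred over the 16 arrays, was -0.13, -0.37, -0.02 and -0.07 in pregnant TiO2 lungs, -0.14 to -0.10 in pregnant PBS lungs, 0.47, 0.16, 0.13 and 0.11 in non-pregnant TiO2 lungs and 0.06, 0.11, -0.13 and 0.12 in non-pregnant PBS lungs. Without non-pregnant TiO2 replicate 1, no member passed the test between pregnant and non-pregnant lungs after TiO2: Hsph1 was then at -0.73 (adjusted p = 0.0806), Dnaja1 at -0.41 (adjusted p = 0.0677) and Hspa8 at -0.26 (adjusted p = 0.142). Without pregnant TiO2 replicate 2, Hsph1 and Dnaja1 still passed, at -0.76 (adjusted p = 0.0414) and -0.51 (adjusted p = 0.0417), Hspa8 did not, at -0.26 (adjusted p = 0.0888), and Hspa1b was at -0.37. Leaving out pregnant TiO2 replicate 1 or 4 also left no member called, with Hsph1 at -0.75 (adjusted p = 0.0759) and -0.86 (adjusted p = 0.0522). In the labels' list of RNA extracts, 1 non-pregnant TiO2 sample needed 15.6 cycles to detect beta-actin, where the other 3 of that group needed at most 13.6. The labels do not tie this list to single arrays, and its part in the result was not tested.

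**Figure D4:**
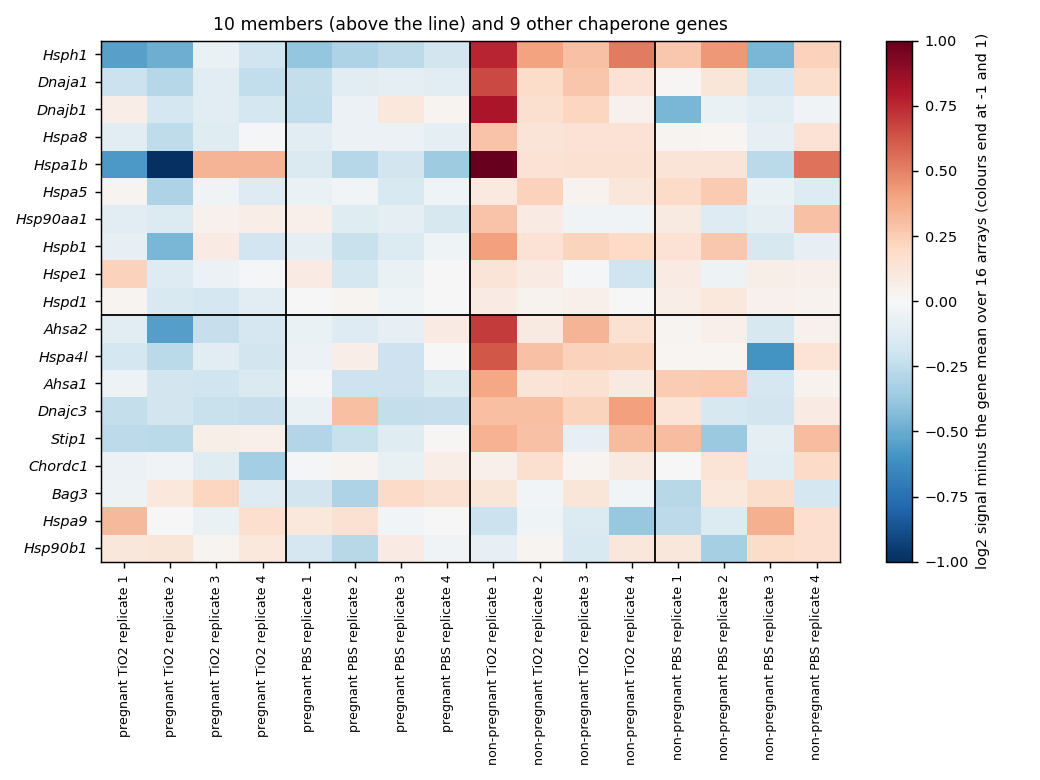
Log2 signal of each gene minus its mean over the 16 arrays, for the 10 members above the line and 9 other chaperone genes below it, with 1 column per array and a colour scale that ends at -1 and 1. Non-pregnant TiO2 replicate 1 is red for most members, pregnant TiO2 replicate 2 is blue, in places faintly, for all of them, and Hspa9 and Hsp90b1 are not red in the first of these arrays.

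The other chaperone genes were counted in 7 lists, with 95 genes measured. After TiO2, 2 of the 95 were called lower and 1 higher in pregnant lungs, beside 0.509% and 1.37% of all genes. The median difference of the 95 was -0.02. Ahsa2, of the family that activates the HSP90 ATPase, was at 7.75, 7.31, 7.63 and 7.69 log2 in pregnant TiO2 lungs, against 8.56, 7.95, 8.20 and 8.01 log2 in non-pregnant TiO2 lungs. It did not overlap between the groups and fell by 0.59 on the log2 scale (SE 0.13; limma adjusted p = 0.0288). Dnajc3, a J-domain protein of the endoplasmic reticulum that works with Hspa5, was at 10.14, 10.20, 10.16 and 10.15 log2 in pregnant TiO2 lungs, against 10.68, 10.68, 10.60 and 10.79 log2 in non-pregnant TiO2 lungs. These groups were well apart, with a difference of -0.53 ± 0.11 (adjusted p = 0.0282). Pfdn1, a subunit of prefoldin, which hands actin and tubulin to the cytosolic chaperonin, went the other way, at 9.35 to 9.66 log2 in pregnant TiO2 lungs against 8.66 to 8.94 log2 in non-pregnant TiO2 lungs (difference 0.61 ± 0.12; adjusted p = 0.0255).

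By family, the other HSP70, HSP90 and HSP110 genes of the cytosol lay below 0 for 7 of 8 measured members, with none called and a median of -0.12. The nearest to the threshold was Hspa4l, an HSP110 relative of Hsph1, at -0.53 ± 0.14 (adjusted p = 0.062), whose groups did not overlap. Among 20 measured cochaperones, Ahsa2 was the 1 called, and the median was -0.02. Ahsa1, the HSP90 activator, differed by -0.33 ± 0.10 (adjusted p = 0.0844), Stip1, which links HSP70 to HSP90, by -0.32 ± 0.15 (adjusted p = 0.235), and Chordc1, an HSP90 partner, by -0.22 ± 0.08 (adjusted p = 0.168). Bag3, a nucleotide exchange factor that is itself strongly heat-inducible, differed by -0.01 ± 0.13, with an interval from -0.28 to 0.26.

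In the endoplasmic reticulum list 18 of 24 genes lay below 0, with Dnajc3 the 1 called and a median of -0.11. Hsp90b1, the HSP90 of that compartment, differed by 0.12 ± 0.11. Mitochondrial chaperones other than Hspd1 and Hspe1 lay above 0 for 9 of 10 genes, with none called and a median of 0.14. Their HSP70, Hspa9, differed by 0.29 ± 0.13 (adjusted p = 0.21). All 5 other small heat-shock proteins lay above 0, with none called. Cryab differed by 0.16 ± 0.11 and Hspb8 by 0.02 ± 0.13. In the list of chaperonin and prefoldin subunits 7 of 14 lay above 0, and Pfdn1 was the 1 called. The other cytosolic J-domain proteins lay above 0 for 7 of 14, with none called. After PBS none of the 95 genes was called. Hsf4 and the factor-binding protein Hsbp1, the measured 2 of 4 genes of the heat-shock factor list, were not called in this comparison (adjusted p = 0.814 and 0.99).

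**Figure D5:**
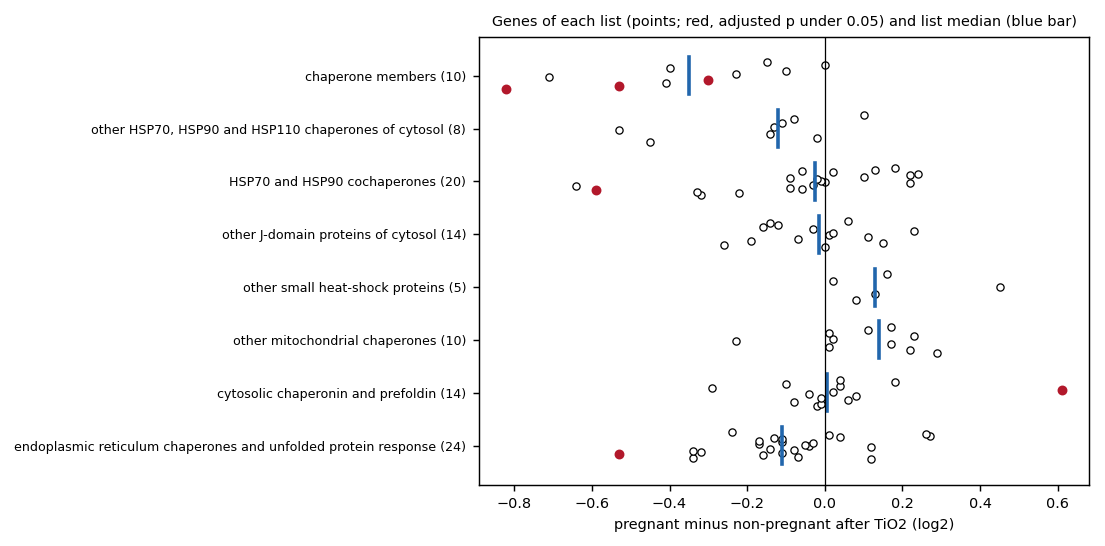
Differences between pregnant and non-pregnant lungs after TiO2 in log2 units for the members and the 7 other chaperone lists, with the number of genes measured in brackets; points are genes, red points have an adjusted p under 0.05 and blue bars are list medians. The members have the lowest median, -0.35, beside -0.12 for the other HSP70, HSP90 and HSP110 genes and 0.14 for the other mitochondrial chaperones. The members were picked with earlier results of these arrays known, so that their place is a description.

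The genes whose pattern over the 16 arrays was most like the mean of the members were Ahsa2 and Wfdc6a (Pearson's r = 0.91 each), Papss2 (0.89), and Lyve1 and Arhgap24 (0.88 each). With group means taken off they were Tmem33 (0.92), Hikeshi and Gsdme (0.87 each), Ahsa2 (0.86) and Slc38a2 (0.85). Ahsa2 stood in both rankings. Hikeshi carries HSP70 into the nucleus in heat-stressed human cells. It differed by -0.11 ± 0.09 between pregnant and non-pregnant lungs after TiO2.

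Lists of genes for other cell types and signals were measured in the same comparison. Over the neutrophil marker list, 3 of 10 measured genes were called higher in pregnant lungs after TiO2 and 6 of 10 after PBS, where 1.37% and 0.808% of all genes were called higher in those comparisons. The mean of that list ranged from 7.90 to 8.45 log2 in pregnant TiO2, 8.55 to 9.08 in pregnant PBS, 7.49 to 7.96 in non-pregnant TiO2 and 7.74 to 8.05 in non-pregnant PBS lungs. Glucocorticoid target genes lay below 0 for 8 of 8 after TiO2, with a median of -0.43. Of these Klf9, a transcription factor induced by the hormone, was called at -0.33 ± 0.08 (adjusted p = 0.0491), although its second brightest probe set stood at 0.10. The mean of that list ranged from 10.11 to 10.84 log2 in pregnant TiO2 and from 10.93 to 11.16 log2 in non-pregnant TiO2 lungs, with no overlap.

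Immediate-early genes, which answer within minutes to many stimuli, were called higher in pregnant lungs after TiO2 for 3 of 15, beside the same 1.37% of all genes. After PBS 2 of 15 were called higher in pregnant lungs, beside 0.808% of all genes. Nr4a1 was called after TiO2, at 1.26 ± 0.17 (adjusted p = 0.00343). It averaged 9.54 log2 in pregnant TiO2, 9.66 in pregnant PBS, 8.28 in non-pregnant TiO2 and 8.32 in non-pregnant PBS lungs. The list of fast striated muscle genes had a median of -1.0 and that of squamous epithelium -0.73, in both of which pregnant TiO2 replicate 2 took part, and the fat list had a median of 1.31. None of the genes of these 3 lists was called. Cirbp, an RNA-binding protein induced by mild cold, differed by 0.26 ± 0.17 (adjusted p = 0.402). Lung identity markers had a median of 0.02. The part of these groups in the chaperone differences was not tested. The ratio of 3′ to 5′ signal for actin, a sign of RNA integrity, was 1.33 to 1.47 in pregnant TiO2 and 1.30 to 1.39 in non-pregnant TiO2 lungs. For Gapdh it was 0.821 to 1.06 and 0.778 to 0.915 in those groups. Its lowest value, 0.778, was on non-pregnant TiO2 replicate 1, where the member mean was 0.47. Pregnant TiO2 replicates 1 and 2 were at 1.06 and 1.05, with member means of -0.13 and -0.37. Non-pregnant PBS replicate 3 was at 1.2 (member mean -0.13) and replicate 1 at 1.03 (0.06). The part of RNA integrity in the chaperone differences was not tested.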

How the data were processed

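Whole-lung RNA of 16 samples was hybridised to Affymetrix mouse arrays, 1 per sample. The deposited values are linear intensities, 1 for each of 45101 probe sets and each array. The submitters' processing notes name GCOS, MAS5 and RMA. It is not given in the sources used here which of them made the deposited intensities, nor in which version. Their brightness differs between arrays, so the deposited values are not on a common scale. No array gives a depth, and the number of arrays limits the precision.

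After 64 control probe sets were left out, the intensities were quantile-normalized and log2(value + 16) was taken, which understates changes of weak signals. Probe sets above the median of their array on at least 4 arrays were kept (23995). Names came from the platform annotation, with symbols updated against RefSeq on GRCm38.p6, where 34945 probe sets had 1 symbol, 932 several and 9160 none listed. The brightest probe set with a single symbol stood for each gene. Levels of different probe sets were not compared. Groups came from the source name and gestation labels. A single fit of 4 group means over 16 arrays was made with limma 3.58.1 in R 4.3.3 (lmFit and eBayes, two-sided), with Benjamini-Hochberg adjustment over 12369 genes within each of 5 contrasts and a threshold of 0.05. The fit was checked on simulated data in which each gene varied independently. That check does not cover variation that genes share over the arrays, as the members had. Its pass mark for recovery was set on changes larger than those of the members.

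The members, the gene lists, the tests and the rule for named genes were chosen with earlier results of these data known. The rule named all members and their probe sets, a short list of heat-shock genes, up to 2 called genes of each list in each contrast or, for the chaperone lists without one, the gene with the smallest p, and the 5 genes most like the mean of the members by each of 2 measures. The alternatives varied the scaling, the filter, the pseudocount (1 and 64), the probe set per gene, the spread estimate, array weights, the arrays in the fit, the array with conflicting labels, and each array left out in turn. Core clock and cold-inducible lists were also measured; no clock gene was called between pregnant and non-pregnant lungs. Hsf1, Hsf2, Hsp90ab1 and Rbm3 were not analysed here.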

Additional observations from a re-analysis of the deposited data

Results flagged for a closer look

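Within groups of 4 arrays, a single value lay far from the other 3 in 3 of 40 combinations of member and group, where chance gives about 1 in 20, or 2 of 40. Hspa1b was at 10.7 log2 in non-pregnant TiO2 replicate 1, with the nearest of the other 3 arrays at 9.65, a gap that took up 0.99 of the range of the group. Hspa8 was at 13.01 log2 in the same array, with the nearest at 12.87 (0.85 of the range). Dnajb1 was at 9.33 log2 in non-pregnant PBS replicate 1, with the nearest at 9.68 (0.84 of the range). The high array took part in both comparisons of non-pregnant TiO2 lungs, and the low one in both comparisons of non-pregnant PBS lungs.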

How the results depend on the processing

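The 3 members called lower in pregnant lungs after TiO2 became 0 with the values as deposited, 0 with the second brightest probe set of each gene, 1 with the mean over probe sets, 1 with the array of conflicting labels counted as pregnant PBS, and 5 with array weights. They became 0 without both non-pregnant TiO2 replicate 1 and pregnant TiO2 replicate 2, an alternative chosen after seeing the data. Leaving out each array in turn gave 0 to 3, with 0 for 3 of the 16 arrays (non-pregnant TiO2 replicate 1, pregnant TiO2 replicates 1 and 4) and 1 for non-pregnant TiO2 replicates 3 and 4. After PBS, no call became 1 call, of Hsph1, without the 2 thymus arrays (adjusted p = 0.0423) and without the 3 arrays of unlike tissue content (adjusted p = 0.0383), and 0 to 1 with each array left out. In the other 3 comparisons no member was called under any alternative run; a fit of only the groups compared was not made for the difference of the TiO2 responses, which uses all 4. Of the 33 alternatives, 2 repeat an array left out in turn: that without the array of conflicting labels, which is non-pregnant PBS replicate 2, and that without the array lacking squamous and muscle transcripts, which is pregnant TiO2 replicate 2. Over the 33, Hsph1 after TiO2 ran from -0.93 to -0.67 and was called in 25 (adjusted p 0.00371 to 0.102), Dnaja1 from -0.61 to -0.35 and was called in 25 (0.00549 to 0.528), and Hspa8 from -0.37 to -0.09 and was called in 11 (0.0157 to 0.867), all with the same sign. Klf9 turned to 0.10 (adjusted p = 0.731) with the second brightest probe set. The cause was not tested in any of these. All genes called after TiO2 numbered 233, and 21 as deposited to 1505 with array weights; after PBS they numbered 129, and 7 with the array of conflicting labels as pregnant PBS to 294 without the 3 arrays. As deposited, the median of all genes shifted to -0.08 after TiO2 and 0.16 after PBS, and to 0.17 for TiO2 in non-pregnant mice, so that those differences hold a shift of the whole array. No paired analysis was possible because the replicate numbers follow the order of the samples and the labels pair none. The precision of each difference is limited by the 4 arrays a group.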

Other observations

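Pfdn1, the prefoldin subunit called higher in pregnant lungs after TiO2, was at 9.66, 9.35, 9.41 and 9.43 log2 in pregnant TiO2, 8.77, 8.81, 9.14 and 9.36 log2 in pregnant PBS, 8.88, 8.92, 8.94 and 8.66 log2 in non-pregnant TiO2 and 9.28, 9.12, 9.37 and 9.18 log2 in non-pregnant PBS lungs. Between TiO2 and PBS it differed by 0.44 ± 0.12 in pregnant lungs (adjusted p = 0.557) and by -0.39 ± 0.12, with no overlap, in non-pregnant lungs (adjusted p = 0.322). The difference of these responses, 0.83 ± 0.17, stood at rank 9 of 12369 genes by p, with an adjusted p of 0.232.

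Of the 95 genes in the 7 other chaperone lists, 5 had TiO2 arrays wholly above the PBS arrays in non-pregnant lungs and 2 wholly below. Of all 12369 genes, 258 (2.09%) lay wholly above and 385 wholly below. Hspa4l, Ahsa2 and Dnajc3 were among the 5. Each was named for the smallest p of its list in this comparison, so that its separation is in part built in. The differences between TiO2 and PBS were -0.14 ± 0.14, -0.22 ± 0.13 and -0.16 ± 0.11 in pregnant lungs, in that order of genes, and 0.45 ± 0.14, 0.33 ± 0.13 and 0.34 ± 0.11 in non-pregnant lungs. The differences of these responses were -0.58 ± 0.19, -0.55 ± 0.18 and -0.50 ± 0.16, none of them past the threshold (limma adjusted p = 0.363, 0.36 and 0.358). The genes most opposite to the mean of the members over the 16 arrays, named after their values were seen, were Ssbp4 (Pearson's r = -0.92) and the myeloid transcript Lst1 (-0.91). Lst1 was higher in pregnant lungs after TiO2 by 0.94 ± 0.19 (limma adjusted p = 0.0255), where 1.37% of all genes were called higher. This direction follows in part from the choice, because the mean of the members holds the same arrays and the same comparison.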
